A study of Caenorhabditis elegans with 10 samples.

Results

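Homeobox genes encode transcription factors that bind DNA through a homeodomain, and 91 of them were followed here among 46272 genes in the authors' deposited table of sorted cells from Caenorhabditis elegans. They were chosen by name: every gene named ceh with a number, apart from the NK-2 gene ceh-22, and 27 further homeobox genes such as lim-4, unc-86, mab-5 and pal-1. The table's own descriptions called 73 of the 91 homeobox genes or proteins, and it listed all 91 as protein-coding. In 5 libraries cells were sorted by fluorescence as YFP-labelled ASH neurons, and in the other 5 they were cells without YFP (non-ASH). ASH is a pair of head sensory neurons for noxious stimuli. Both groups were wild type by label, untreated and grown on standard plates. The sources used here give neither the promoter that drove YFP, nor the age of the worms, nor the cell types in the non-ASH fraction.

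Homeodomain proteins decide where cells lie along the body axis and which type they become. Hox genes mark positions from head to tail, TALE proteins such as Pbx and Meis relatives bind DNA together with them, and LIM, POU, sine oculis and paired-like genes act later, often in combinations that fix the identity of single neuron types in the worm. Among sensory neurons, ttx-1 specifies the thermosensory neuron AFD, lim-4 the olfactory neuron AWB, and unc-86 with mec-3 the touch neurons.

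The table held 1 FPKM value per group (fragments per kilobase of transcript, scaled to library size) and no value per library, so levels are printed without an error. FPKM is given after subtraction of the 1 that the authors had added. Fold changes are on the log2 scale, ASH over non-ASH, and were made by DESeq2 unless Cuffdiff is named. The threshold for a call was a DESeq2 adjusted p under 0.05, and a gene with an adjusted p is said to be tested. All 8 marker genes of ASH, unc-42 among them, were called higher by DESeq2, and 6 of them by Cuffdiff at a q under 0.05. Marker lists were chosen with earlier results of these data known, so these calls are no independent check of the sort. The summed level of the 8 ASH markers was 743 FPKM in ASH, against 111 in non-ASH per the authors' deposited table. Most of both sums came from nlp-3, with 489 FPKM in ASH, against 101 in non-ASH. Markers of other tissues moved as well per the authors' deposited table. In ASH 2 of 5 intestine, 1 of 3 body wall muscle and 1 of 4 epidermis markers were higher, while 3 of 4 pharyngeal muscle, 2 of 2 coelomocyte and 2 of 3 glia markers were lower. The epidermis marker called higher was dpy-7, and the other 3 had fold changes below 0 (col-19 -0.18, elt-3 -0.91, rol-6 -1.17). Among the glia markers ptr-10 went the other way, with a fold change of 1.47 that was not called. The labels do not say that the libraries came from separate sorts, so the p-values measure the spread between these libraries, which may be technical. In sorted pools, more cells of a type and more RNA per cell cannot be told apart.

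Of the 91 homeobox genes 80 were tested, with 6 higher and 5 lower in ASH per the authors' deposited table. That is 7.50% higher and 6.25% lower, against 5.32% and 4.44% of all 16802 tested genes, so the share called was near the background in both directions. The 6 higher genes were the paired-like gene ceh-8, the Hox genes php-3, nob-1, mab-5 and egl-5, and the LIM gene lin-11. The 5 lower genes were the POU gene ceh-18, the sine oculis gene ceh-34, the LIM gene lim-7, the Pax-6 gene vab-3 and ceh-62. The median fold change was 0.13 over the tested homeobox genes and -0.09 over all tested genes, and 55.0% against 45.7% were above 0. With a floor of 1 FPKM in either group the homeobox median was 0.020, and the median log2 ratio of FPKM + 1 was -0.023 with that floor against 0.0014 over all 91 genes. Without adjustment, 10 homeobox genes above 0 and 10 below 0 had a p under 0.05, together 25% of those tested against 23.7% of all tested genes.

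Levels were low for most of the group. In ASH 51 of the 91 genes (56.0%) were listed at 1 FPKM or more, and in non-ASH also 51, against 58.5% of protein-coding genes in ASH and 61.6% in non-ASH per the authors' deposited table. Among the 91 genes, 40 reached 1 FPKM in both groups, 11 in ASH and not in non-ASH, and 11 in non-ASH and not in ASH, while 29 reached it in neither. The median level was 1.25 FPKM in ASH, against 1.49 in non-ASH, and the summed level was 385 FPKM in ASH, against 429 in non-ASH. Over all protein-coding genes the median was 2.47 FPKM in ASH, against 2.85 in non-ASH. Their summed level went the other way, with 1137390 FPKM in ASH, against 941196 in non-ASH. The 10 highest homeobox genes held 54% of the homeobox sum in ASH and 58.2% in non-ASH per the authors' deposited table.

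**Figure D1:**
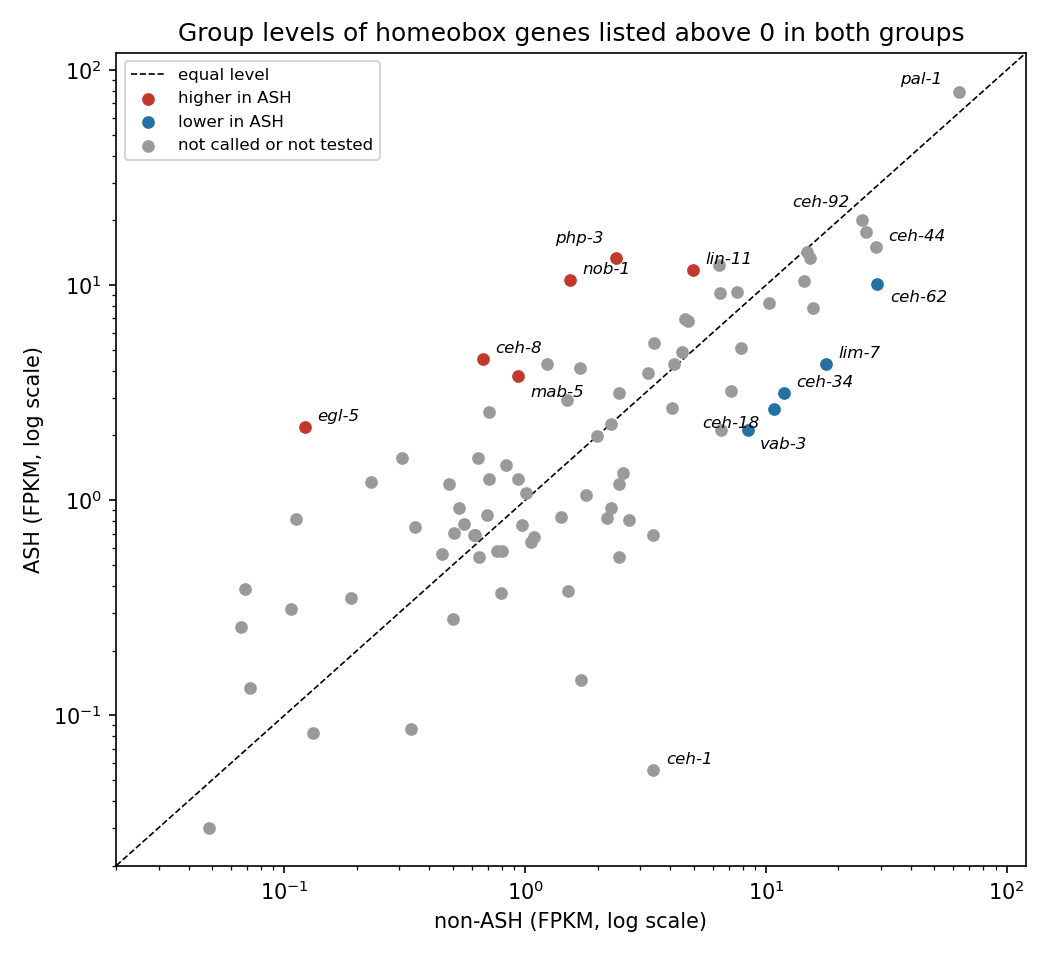
Level of each homeobox gene in ASH (vertical, FPKM, log scale) against non-ASH (horizontal, FPKM, log scale), with 1 point per gene for the 85 genes listed above 0 in both groups and a dashed line of equal level. The 6 genes called higher by DESeq2 lie above the line, the 5 called lower lie below it, and pal-1 is the highest point in both groups.

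The most abundant homeobox transcript in both fractions was pal-1, the caudal gene of posterior patterning. The authors' deposited table listed it at 79.1 FPKM in ASH, against 63.1 in non-ASH, which is 20.6% and 14.7% of the summed level, with a fold change of 0.43 (DESeq2 adjusted p = 0.403). Next in ASH came ceh-92 at 20.1 FPKM (25 in non-ASH), the ONECUT gene ceh-38 at 17.6 (26.1 in non-ASH) and the cut-like gene ceh-44 at 15.1 (28.7 in non-ASH) per the authors' deposited table. These 4 genes, none of them called, led the ASH order. The TALE genes ceh-20, a Pbx relative, and unc-62, a Meis relative, followed at 14.3 and 13.4 FPKM in ASH, against 14.8 and 15.2 FPKM in non-ASH per the authors' deposited table. The places after them in ASH were taken by php-3, the ONECUT gene ceh-49 (12.5 FPKM in ASH, 6.37 in non-ASH), lin-11 and nob-1. In non-ASH, the 10 highest also held ceh-62, lim-7, ceh-100 (7.81 FPKM in ASH, 15.6 in non-ASH) and lim-6 (10.5 in ASH, 14.4 in non-ASH) per the authors' deposited table. Between the groups, 6 of the 10 were shared. With no value per library, it cannot be said which neighbours in either order differ beyond their spread. The identifier listed as ceh-44 carries the current symbol cone-1 in the name table used here, so its value may cover transcripts of both names.

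One homeobox gene outside the name rule has to be set beside these levels. The paired-like gene unc-42, needed for the identity of ASH and other neurons, stood at 72.3 FPKM in ASH, against 6.46 in non-ASH per the authors' deposited table, with a fold change of 3.03 (DESeq2 adjusted p = 0.000577). In ASH 1 of the 91 genes, pal-1, was listed above it, and in non-ASH 18 were. No fold change among the 80 tested homeobox genes reached that of unc-42, the largest being 2.55 for ceh-8 per the authors' deposited table.

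Among the Hox genes, the 4 of the posterior body were higher in ASH, and the anterior gene ceh-13 and the midbody gene lin-39 were not called. DESeq2 called 5.32% of all tested genes higher. The authors' deposited table listed php-3, an Abdominal-B-like gene needed for posterior patterning, at 13.4 FPKM in ASH, against 2.39 in non-ASH, with a fold change of 2.21 (DESeq2 adjusted p = 0.0113). Its paralog nob-1, whose loss leaves larvae without a proper tail, was listed at 10.6 FPKM in ASH, against 1.53 in non-ASH, with a fold change of 2.13 (DESeq2 adjusted p = 0.0358) per the authors' deposited table. In the authors' deposited table mab-5, the Antennapedia-like gene of the posterior body, stood at 3.76 FPKM in ASH, against 0.932 in non-ASH, with a fold change of 2.11 (DESeq2 adjusted p = 0.00821). For these genes the level in ASH was 4.04 to 6.91 times that in non-ASH.

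The tail gene egl-5, also Abdominal-B-like, was listed at 2.19 FPKM in ASH, against 0.121 in non-ASH, with a fold change of 1.45 (DESeq2 adjusted p = 0.00492) per the authors' deposited table. Its FPKM ratio of 18 is taken over a non-ASH level well under 1 FPKM and is larger than the DESeq2 fold change gives. The sources used here do not say whether that fold change was shrunken. The midbody gene lin-39 had 6.81 FPKM in ASH, against 4.76 in non-ASH, with a fold change of 0.55 (DESeq2 adjusted p = 0.291) per the authors' deposited table. The labial relative ceh-13 had 3.23 FPKM in ASH, against 7.17 in non-ASH per the authors' deposited table, with a fold change of -0.89 (DESeq2 adjusted p = 0.0647). Neither lin-39 nor ceh-13 passed the threshold.

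Taken from anterior to posterior, the DESeq2 fold changes of the 6 Hox genes were -0.89, 0.55, 2.11, 1.45, 2.13 and 2.21 per the authors' deposited table, and those of Cuffdiff were -0.95, 0.44, 1.30, 1.51, 2.19 and 2.08. The 4 posterior genes summed to 29.9 FPKM in ASH, against 4.97 in non-ASH. Cuffdiff called none of the 6 per the authors' deposited table, with q of 0.0512 for php-3, 0.0996 for nob-1, 0.0762 for mab-5 and 0.311 for egl-5. The order along the body was noticed after the values were seen, and 6 genes that share their libraries give no test of it. Intestine markers moved in the same direction, with 2 of 5 called higher, all 5 with a fold change above 0, and summed levels of 5353 FPKM in ASH, against 1242 in non-ASH per the authors' deposited table. Most of both sums came from asp-1 (3660 FPKM in ASH, 692 in non-ASH) and vit-2 (1657 in ASH, 537 in non-ASH). DESeq2 but not Cuffdiff called asp-1, and neither tool called vit-2. Of 3 body wall muscle markers 1, unc-54, was called higher, with a fold change of 1.11. The others were not called, with fold changes of 0.34 for unc-27 and -0.39 for myo-3. The summed levels of the 3 were 940 FPKM in ASH, against 534 in non-ASH per the authors' deposited table. The part of these intestine and muscle markers in the Hox result was not tested.

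**Figure D2:**
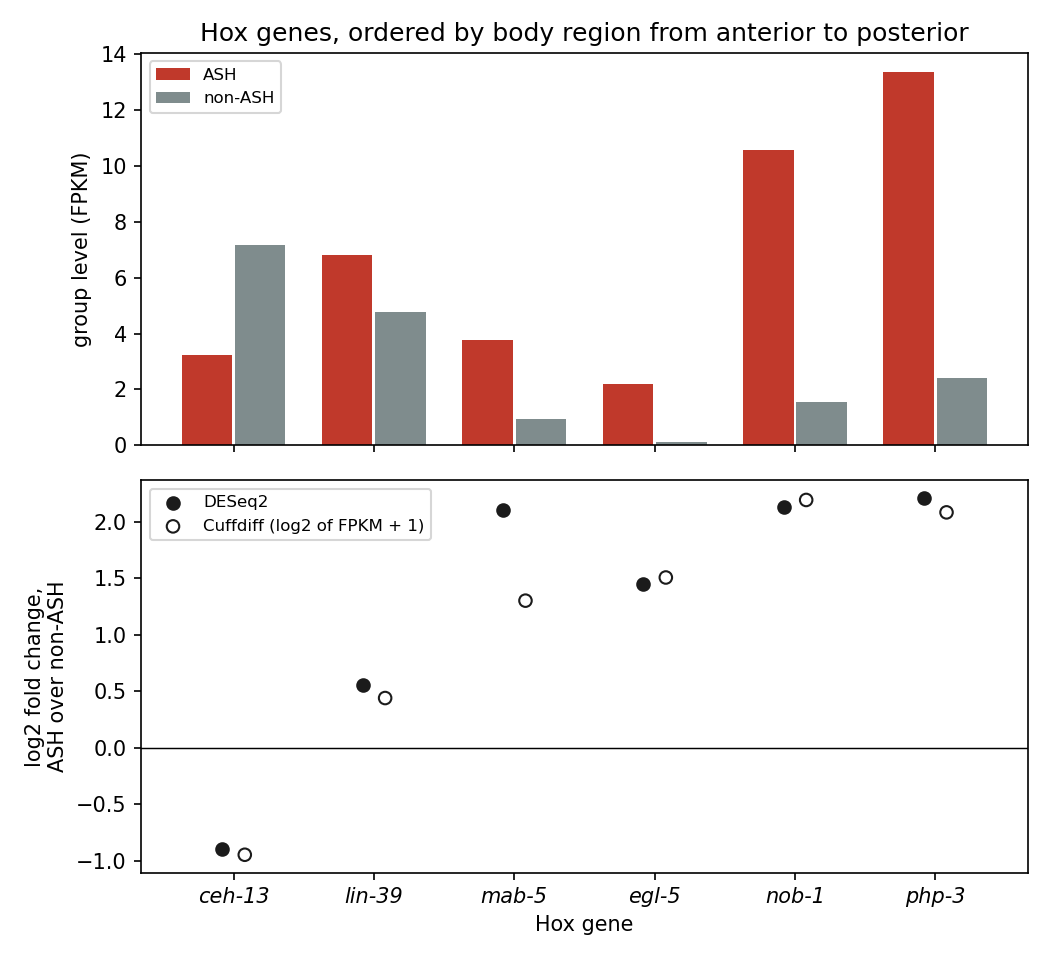
The 6 Hox genes from anterior (left) to posterior (right): the upper panel gives the group level in FPKM for ASH and non-ASH, the lower panel the log2 fold change, ASH over non-ASH, of DESeq2 (filled) and Cuffdiff (open). The posterior genes mab-5, egl-5, nob-1 and php-3 stand higher in ASH, and ceh-13 has a fold change of -0.89 by DESeq2.

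TALE genes, the partners of Hox proteins, held no call by either tool among 4 tested, and 0 had an unadjusted DESeq2 p under 0.05. With 5.32% of all tested genes called higher and 4.44% lower by DESeq2, 0 calls among 4 does not set the class apart. The 2 that were abundant, ceh-20 and unc-62, had fold changes of 0.05 and -0.05 per the authors' deposited table. The Pbx relatives ceh-40 and ceh-60 had 1.21 and 4.13 FPKM in ASH and 0.228 and 1.69 FPKM in non-ASH, with fold changes of 1.0 (DESeq2 adjusted p = 0.328) and 0.90 (DESeq2 adjusted p = 0.269) per the authors' deposited table. ceh-60 is known as a regulator of yolk protein genes in the intestine.

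Among 14 paired and paired-like genes, ceh-8 was higher and vab-3 lower. As DESeq2 called 5.32% of all tested genes higher and 4.44% lower, 1 call each way among 14 does not set the class apart. ceh-8, a relative of the vertebrate Rx genes, stood at 4.53 FPKM in ASH, against 0.665 in non-ASH per the authors' deposited table, with the largest fold change of the tested homeobox genes (2.55, DESeq2 adjusted p = 0.0149). It was also the only homeobox gene that both tools called higher (Cuffdiff q = 0.0108). vab-3, the Pax-6 gene of head patterning, stood at 2.12 FPKM in ASH, against 8.39 in non-ASH, with a fold change of -1.54 (DESeq2 adjusted p = 0.0273) per the authors' deposited table. Cuffdiff did not call vab-3 (q = 0.0740).

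The other 12 paired and paired-like genes were not called. unc-30, which specifies GABA motor neurons of the ventral cord, was at 2.57 FPKM in ASH, against 0.705 in non-ASH with a fold change of 1.52 (DESeq2 adjusted p = 0.115) per the authors' deposited table. Beside it, the 2 GABA markers were split, and neither was called per the authors' deposited table. unc-25 had 16.4 FPKM in ASH, against 8.20 in non-ASH, with a fold change of 0.91 (DESeq2 adjusted p = 0.165). unc-47 had 0.760 FPKM in ASH, against 0.850 in non-ASH, with a fold change of -0.06 (DESeq2 adjusted p = 0.964). At the other end, the Phox2 relative ceh-17 was at 0.810 FPKM in ASH, against 2.70 in non-ASH with a fold change of -1.50 (DESeq2 adjusted p = 0.188) per the authors' deposited table. The Otx relatives ttx-1 (AFD), ceh-36 (AWC and ASE) and ceh-37 (AWB) had fold changes of -0.51, 0.80 and 0.16 per the authors' deposited table, none of them called.

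**Figure D3:**
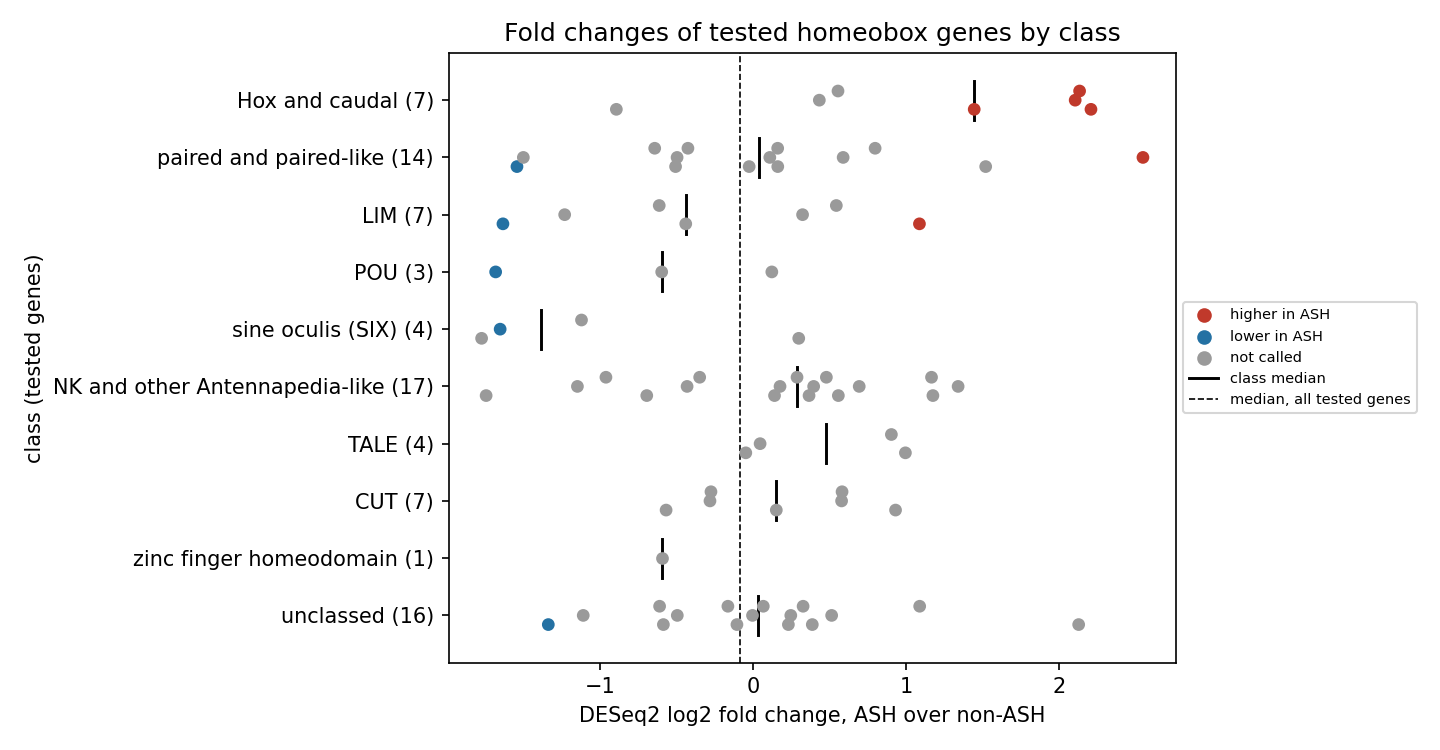
DESeq2 log2 fold change, ASH over non-ASH (horizontal), of the 80 tested homeobox genes by class, with 1 point per gene, a short bar at each class median and a dashed line at the median of all tested genes (-0.09). Calls higher in ASH (red) lie in the Hox, paired-like and LIM classes, and the class medians run from -1.39 for the sine oculis class to 1.45 for Hox and caudal genes.

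Among 7 LIM genes, lin-11 was higher and lim-7 lower. Beside 5.32% higher and 4.44% lower of all tested genes, 1 call each way among 7 does not set the class apart. lin-11, needed for vulval cells and for head neurons such as AIZ and ASG, was listed at 11.8 FPKM in ASH, against 4.98 in non-ASH per the authors' deposited table, with a fold change of 1.09 (DESeq2 adjusted p = 0.0479, Cuffdiff q = 0.0859). lim-7, an Islet relative known from the gonadal sheath, was listed at 4.31 FPKM in ASH, against 17.7 in non-ASH, with a fold change of -1.64 (DESeq2 adjusted p = 0.0417, Cuffdiff q = 0.0156) per the authors' deposited table. The other 5 LIM genes were not called. They included lim-4, the AWB gene, at 0.689 FPKM in ASH, against 3.40 in non-ASH with a fold change of -1.23 (DESeq2 adjusted p = 0.334) per the authors' deposited table. The fold changes of ceh-14, lim-6, mec-3 and ttx-3, which act in AFD, ASE, touch neurons and the interneuron AIY among others, ran from -0.61 to 0.54 per the authors' deposited table.

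Markers of the neurons that these genes specify were near 0 in both fractions for most types. The AFD markers gcy-8, gcy-18 and gcy-23 summed to 0.732 FPKM in ASH, against 1.57 in non-ASH, and the 3 ASE markers to 0.457 FPKM in ASH, against 0.383 in non-ASH per the authors' deposited table. The AWB marker str-1 was listed at 0 in ASH and 0.0221 FPKM in non-ASH per the authors' deposited table. The 4 touch neuron markers summed to 23.5 FPKM in ASH, against 13.2 in non-ASH, most of it from mec-17, and none of them was called per the authors' deposited table.

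Of 3 POU and 4 sine oculis genes, all tested, 1 in each class was called, ceh-18 and ceh-34, both lower in ASH. With 1 call per class no direction of a class can be read, and 4.44% of all tested genes were called lower. ceh-18, the POU gene of gonadal sheath cells that restrains oocyte maturation, stood at 2.65 FPKM in ASH, against 10.8 in non-ASH per the authors' deposited table, with a fold change of -1.68 (DESeq2 adjusted p = 0.0154, Cuffdiff q = 0.00648). The other POU genes, unc-86 of touch and other neurons and ceh-6, had fold changes of 0.12 and -0.60 per the authors' deposited table and were not called. The germline markers glh-1, pgl-1 and rme-2 summed to 458 FPKM in ASH, against 560 in non-ASH with none called per the authors' deposited table. No marker of the gonadal sheath itself was in the lists used here.

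The sine oculis gene ceh-34, which specifies neurons of the pharynx, was listed at 3.16 FPKM in ASH, against 11.9 in non-ASH, with a fold change of -1.65 (DESeq2 adjusted p = 0.0135, Cuffdiff q = 0.0108) per the authors' deposited table. Its neighbour ceh-33 had 0.377 FPKM in ASH, against 1.51 in non-ASH with a fold change of -1.78, the most negative of the tested homeobox genes, and did not pass (DESeq2 adjusted p = 0.281) per the authors' deposited table. ceh-32, a gene of head patterning, had 2.13 FPKM in ASH, against 6.49 in non-ASH with a fold change of -1.12 (DESeq2 adjusted p = 0.179) per the authors' deposited table. Of the 4 genes of this class only unc-39 was above 0, at 0.30. Of the 4 pharyngeal muscle markers 3 were called lower by DESeq2 and all 4 by Cuffdiff, with summed levels of 26.6 FPKM in ASH, against 113 in non-ASH per the authors' deposited table. Their part in the result for ceh-34 was not tested.

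None of 17 tested NK and other Antennapedia-like genes was called by either tool, and 1 above 0 and 1 below 0 had an unadjusted p under 0.05 by DESeq2. Of all tested genes DESeq2 called 5.32% higher and 4.44% lower, so 0 calls among 17 does not set the class apart. Nearest to the threshold was ceh-19, a gene of the MC neurons of the pharynx, at 4.31 FPKM in ASH, against 1.24 in non-ASH with a fold change of 1.17 (DESeq2 adjusted p = 0.0621) per the authors' deposited table. vab-7, an even-skipped relative, and ceh-30, a Bar relative needed for male sensory neurons, had fold changes of 1.34 (DESeq2 adjusted p = 0.251) and 1.18 (DESeq2 adjusted p = 0.235) per the authors' deposited table. The gene with the widest gap in level was ceh-1, at 0.0554 FPKM in ASH, against 3.41 in non-ASH per the authors' deposited table. Its fold change of -1.75 did not pass (DESeq2 adjusted p = 0.115), nor did its Cuffdiff q of 0.116. ceh-24, known from the m8 muscle of the pharynx, had 0.545 FPKM in ASH, against 2.45 in non-ASH with a fold change of -1.15 (DESeq2 adjusted p = 0.290) per the authors' deposited table.

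The 7 CUT genes also held no call by either tool, with 1 at an unadjusted DESeq2 p under 0.05 and fold changes between -0.57 and 0.93 per the authors' deposited table. Against 5.32% higher and 4.44% lower of all tested genes by DESeq2, 0 calls among 7 does not set the class apart. Members of the CUT class are known to act across the nervous system. The 5 pan-neuronal markers held no call, 3 with a fold change above 0 and 2 below. Their summed levels were 443 FPKM in ASH, against 327 in non-ASH. Most of both sums came from snb-1, with 337 FPKM in ASH, against 235 in non-ASH. The pan-neuronal gene ceh-48 was at 0.370 FPKM in ASH, against 0.796 in non-ASH, and ceh-44 had a fold change of -0.57 (DESeq2 adjusted p = 0.298) per the authors' deposited table. zag-1, a zinc finger homeodomain gene of neuronal differentiation, had a fold change of -0.60 (DESeq2 adjusted p = 0.508) per the authors' deposited table.

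Of the 23 genes placed in no class here, 16 were tested. With 5.32% of all tested genes called higher and 4.44% lower by DESeq2, 1 lower call among 16 does not set them apart. The called gene was ceh-62. It stood at 10.2 FPKM in ASH, against 29.0 in non-ASH, the second highest level in non-ASH, with a fold change of -1.34 (DESeq2 adjusted p = 0.0477, Cuffdiff q = 0.0133) per the authors' deposited table. ceh-63 was at 1.58 FPKM in ASH, against 0.306 in non-ASH with a fold change of 2.13, the largest positive value that did not pass (DESeq2 adjusted p = 0.0675) per the authors' deposited table. The remaining 14 had fold changes between -1.11 for ceh-74 and 1.09 for ceh-57 per the authors' deposited table.

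Several homeobox genes lie beside each other in the genome, and the rule did not use position. By the gene order of RefSeq on WBcel235, in which 90 of the 91 names were found, 10 pairs are direct neighbours among protein-coding genes, 9 of them with both genes tested. In 7 of the 9 pairs both fold changes had the same sign. They include php-3 with nob-1 on chromosome III (2.21 and 2.13), ceh-34 with ceh-33 on chromosome V (-1.65 and -1.78) and ceh-18 with lim-4 on chromosome X (-1.68 and -1.23) per the authors' deposited table. Of the 2 pairs with opposite signs, lin-39 with ceh-13 on chromosome III had 0.55 and -0.89 per the authors' deposited table. The other pair, ceh-82 with ceh-83 on chromosome II, had -0.17 and 0.25. The share of same-sign pairs among neighbouring genes in general was not worked out, so 7 of 9 has no background here. mab-5 and egl-5, with 1 gene between them, were both higher. Paralogs such as php-3 and nob-1 may share reads, and the sources used here do not say how the authors' counting treated them.

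The table gives a second tool's result for the same genes. With Cuffdiff's q under 0.05, 1 of the 80 tested homeobox genes was higher and 4 were lower per the authors' deposited table, against 3.58% higher and 3.53% lower of all 16802 genes tested by DESeq2. All 5 were also called by DESeq2 with the same sign. The 6 that DESeq2 alone called were php-3, nob-1, mab-5, egl-5, lin-11 and vab-3, and the last column of the authors' deposited table, which repeats the DESeq2 adjusted p where it is filled, is blank for these 6. In sign the tools matched for 77 of the 80 genes.

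**Figure D4:**
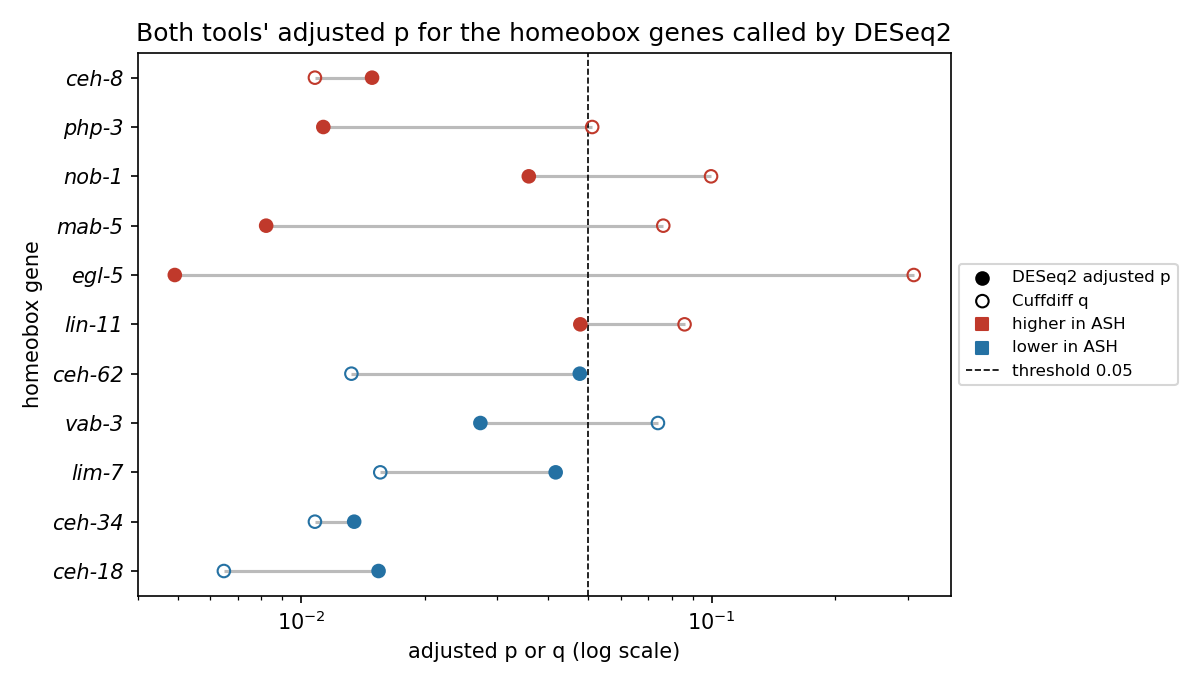
DESeq2 adjusted p (filled) and Cuffdiff q (open) on a log scale for the 11 homeobox genes called by DESeq2, ordered by fold change, with a dashed line at 0.05. ceh-8 and 4 of the 5 lower genes lie left of the line by both tools, and the widest gap is that of egl-5, with 0.00492 by DESeq2 and 0.311 by Cuffdiff.

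Other homeobox genes and regulators lie outside the name rule. Of 13 such homeobox genes, all tested, unc-42 was higher and irx-1, an Iroquois gene, lower, at 2.03 FPKM in ASH, against 5.63 in non-ASH with a fold change of -1.16 (DESeq2 adjusted p = 0.0183) that Cuffdiff did not call (q = 0.194) per the authors' deposited table. The cofactor genes ldb-1, which binds LIM homeodomain proteins, unc-37, the Groucho corepressor that works with unc-4, and ctbp-1 were not called by either tool, 0 of the 3 having an unadjusted DESeq2 p under 0.05, with fold changes of 0.17, 0.07 and -0.78 per the authors' deposited table. None of 8 other regulators of neuron fate was called by either tool, among them the cilium regulator daf-19 at 0.43 (DESeq2 adjusted p = 0.545) per the authors' deposited table, and 1 of the 8 had an unadjusted p under 0.05.

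The 11 homeobox genes without an adjusted p were all low. The genes ceh-75, ceh-85, ceh-87 and ceh-90 were listed at 0 in both groups, and ceh-7, ceh-12, ceh-28, ceh-51, ceh-76, ceh-81 and ceh-84 at no more than 0.257 FPKM in ASH and no more than 0.336 in non-ASH per the authors' deposited table. Of these 11 genes, 3 (ceh-28, ceh-51 and ceh-76) had an unadjusted DESeq2 p, and none of the 3 was under 0.05.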

How the data were processed

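Poly(A)-selected, strand-specific libraries of sorted cells were made, per the labels' protocols, and grouped by title into 5 ASH and 5 non-ASH libraries. The submitters' processing notes list TopHat2 2.0.13 and Bowtie2 2.2.1 next to FastQC, and 2 routes by the authors, Cufflinks with Cuffdiff and HTSeq with DESeq2, are set out in the series' design text. No coordinates are printed, as build and annotation are not given in the sources used here. Sequences were not used here. The 1 deposited table has 46273 rows, of which 1 repeat was dropped. Its group values are FPKM to which the authors added 1, per the file headers and the values, so depth and spread are unknown. The deposited log2 fold changes are the authors', from DESeq2 and from Cuffdiff; Cuffdiff's equal the log2 ratio of the group values with the added 1, which understates changes of low genes. The deposited p-values and q-values come from each of the authors' tools, and DESeq2's adjusted p equals a Benjamini-Hochberg adjustment over 16802 genes. No own test of differential expression was run: the file holds no values per library, so the tests on counts that the design foresaw for that case could not be made. The counting of calls was tested on simulated data. The members, classes and lists were chosen with earlier results of these data known. Named in full were genes called by either tool, the 10 highest in each group, the 5 largest fold changes not called in each direction, and genes at 1 FPKM or more in one group and under 0.1 in the other, 30 in all, with others named to describe a class. Alternatives were other thresholds, tools, floors, pseudocounts and member rules. Python 3.11.15, pandas 2.3.3, numpy 2.4.6 and matplotlib 3.10.9 were used.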

Additional observations from a re-analysis of the deposited data

How the results depend on the processing

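A change of at least 2-fold, a floor of 1 FPKM in either group, current symbols and 13 further homeobox genes left the counts of 6 higher and 5 lower genes within 1.5 times. With an adjusted p under 0.01 from DESeq2, 2 were higher (mab-5 and egl-5) and 0 lower, where Cuffdiff at its own q under 0.05 called 4 lower and 10 below 0 had an unadjusted p under 0.05. By Cuffdiff's q 1 was higher (ceh-8), and by both tools also 1, while 4 were lower by each. A floor of 5 FPKM left 3 higher. The median log2 ratio of FPKM + 1 was 0.0014 over all 91 genes and -0.023 with a floor of 1 FPKM, so it had no stable sign. The median DESeq2 fold change of 0.13 became 0.12 with all genes that have one and 0.020 with that floor. At 5 FPKM or more, 20 genes were listed in ASH and 20 in non-ASH, against 51 and 51 at 1 FPKM. The cause of these shifts was not tested, beyond the smaller number of genes that a floor leaves. No paired analysis was possible because the columns carry no values per library. For the same reason leaving out each replicate and edgeR on counts were not run.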

Other observations

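By chromosome, 4 of the 17 tested homeobox genes on chromosome III were higher in ASH and 0 lower by DESeq2. These 4 were the posterior Hox genes. Cuffdiff called 0 of the 17 in either direction. Among all tested genes DESeq2 called 5.32% higher and 4.44% lower, and Cuffdiff 3.58% and 3.53%. On chromosome I 2 of 9 were higher and 1 lower by DESeq2, and 1 was higher and 1 lower by Cuffdiff. On chromosome X 0 of 24 tested were higher and 2 lower by DESeq2 (Cuffdiff 0 and 1), with 1 above 0 and 3 below 0 at an unadjusted p under 0.05. On chromosome V 1 of 11 was lower. With 1 or 2 calls in a direction on chromosomes I, V and X, no direction of these chromosomes can be read. The median fold change was -0.70 on chromosome V, 0.37 on chromosome III and 0.30 on chromosome X, against -0.09 over all tested genes. All these values come from the authors' deposited table, the chromosomes were compared after the values were seen, and no test was made.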
